A study of Mus musculus with 4 samples.

Results

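The Six-family, Eya and Pax myogenic factors were followed in C2C12 cells, a mouse myoblast line, with and without knockdown of Sfmbt1. The 8 genes were Six4, Six5, Eya1, Eya2, Eya3, Eya4, Pax3 and Pax7. Every probe set that the array annotation assigned to exactly 1 of them was taken, which gave 22 probe sets out of 34945 that named a single gene. No measured value entered that choice, but the genes were put forward with earlier results of these arrays known. All 4 cultures were stable puromycin-selected lines carrying the pLKO.1 lentiviral vector and were kept in medium with 20% serum. The 2 control cultures expressed a control short hairpin RNA (shRNA), called scramble in one label and shLuc, for luciferase, in another. The 2 knockdown cultures expressed shSFMBT1. Each culture was hybridised to 1 Affymetrix mouse array, and the labels call the cultures of a group biological replicates, grown separately. The labels do not tell if each had its own transduction, so the p-values measure the spread between cultures that may share one.

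Six-family proteins are homeodomain transcription factors that bind the MEF3 element of muscle genes. Eya proteins do not bind DNA themselves; they are coactivators, with a phosphatase domain, that Six-family proteins bring to their targets. Pax3 and Pax7 are paired-box transcription factors of muscle progenitors: Pax3 acts mainly in the embryo and Pax7 marks the satellite cell, the stem cell of adult muscle from which C2C12 was derived. In muscle development these families act upstream of the basic helix-loop-helix factors Myf5, MyoD and myogenin.

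The promoter windows of Myog, which encodes myogenin and rose in the knockdown, and of Six4 are shown because each holds an exact MEF3 element. The sequences are RefSeq promoters of the mouse build GRCm38.p6, the 250 bases before the annotated start site, written 5′ to 3′ along the gene's own strand. Capitals mark the MEF3 element, searched on either strand as TCAGGTTTC. The Myog window is chr1:134289754-134290003 on the plus strand and the Six4 window is chr12:73113246-73113495 on the minus strand.

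Myog: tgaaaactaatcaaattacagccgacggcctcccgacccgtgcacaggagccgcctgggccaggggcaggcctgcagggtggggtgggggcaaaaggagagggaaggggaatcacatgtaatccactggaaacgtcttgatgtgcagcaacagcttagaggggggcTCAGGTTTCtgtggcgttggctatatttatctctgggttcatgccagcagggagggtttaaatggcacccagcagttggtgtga
Six4: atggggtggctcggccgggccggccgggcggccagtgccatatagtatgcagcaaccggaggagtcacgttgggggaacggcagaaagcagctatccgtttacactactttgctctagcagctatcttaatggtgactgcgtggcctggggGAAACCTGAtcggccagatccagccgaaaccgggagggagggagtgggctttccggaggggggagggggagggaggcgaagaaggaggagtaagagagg

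In Myog the element lay 84 to 76 bases before the start site on the gene's strand. In Six4 the capitals show it from the opposite strand, 99 to 91 bases before the start site of 1 of that gene's 2 listed windows. An exact match was found in 141 of 32851 promoter windows of 300 bases, 0.429% of them. Promoter windows were at hand for 5 of the 8 members (Six4, Six5, Eya3, Eya4 and Pax7), and Six4 was the member with a match. For the list of muscle genes driven by Six-family factors, described below, 9 of 14 genes had a window and Myog was the one with a match. These are matches of letters in a short window, and no binding was measured in this series.

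The arrays were alike in level. The median signal lay between 92.8 and 102.7, and the background limit, set from 27 bacterial control probe sets, lay between 42.9 and 69.3 and was highest on knockdown replicate 1. That array also had the smallest share of probe sets above background, 56.2% against 64.3% to 67.6% on the others. The 5 myoblast markers Myod1, Myf5, Des, Cdh15 and Itga7 were above background on all 4 arrays. Markers of other cells were mixed. Pecam1 of endothelial cells, Ptprc of blood cells, Adipoq of fat cells and Cdh1 of epithelium were above background on none, but Kdr (endothelial), Cd68 and Lyz2 (immune), Sp7 (osteoblast) and Epcam (epithelial) were above it on all 4 arrays, and Cdh5 (endothelial), Fabp4 (fat) and Ibsp (osteoblast) on 3. Fabp4 read 110.3 and 48.9 in the control against 122 and 152.7 in the knockdown, higher without overlap and not called. Cdh5 was higher without overlap as well and not called. Other markers were lower without overlap. Cd68 read 148.1 and 133.3 in the control against 77.5 and 103.1 in the knockdown, and Kdr 281.1 and 269.8 against 211.8 and 193.4. Neither was called. Ibsp read 92.7 and 70.2 against 18.7 and 58.1, and was too dim to test. Over all tested probe sets, 21.6% were higher and 24.0% lower without overlap. Epcam was at 579.8 and 312.2 in the control against 580.5 and 805.5 in the knockdown, and was not called either (0.66, SE 0.25, adjusted p = 0.233). The part of such cells in the levels of the 8 genes was not tested. The summed signal of 4 fibroblast markers was 13349 to 13727 in the control against 15271 to 15975 in the knockdown, with 0 of 3 tested called. Nearly all of that sum was Col3a1, at 13414 and 12970.5 in the control against 14870.6 and 15624.4 in the knockdown (adjusted p = 0.395). Pdgfra and Dcn overlapped between the groups, and Lum was too dim to test. Sfmbt1 was lower on the knockdown arrays without overlap in each of its 4 tested probe sets, of which 1 was called. In that one, 1422894, the signals were 241.7 and 277.9 in the control against 74.6 and 16 in the knockdown (-2.35 on the log2 scale given below, SE 0.44, adjusted p = 0.0219), the last of them in the background range. In the other 3 the knockdown mean was 43.7%, 67.7% and 69.2% of the control (adjusted p = 0.0594, 0.333 and 0.339). The last of its probe sets was above background on no array.

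Of the 22 member probe sets, 15 were above background on all 4 arrays, 3 on some of them and 4 on none. The 17 probe sets that passed the filter on dim signals, a mean signal of at least 57.3, belonged to 6 genes and were tested. Six5 and Eya2, with 1 probe set each, had none that passed. The probe set nearest above the limit was Pax3 1420389, with a mean of 57.5 on the back-transformed log scale, and the nearest below was Six5 1427560, with 39.1. Signals of different probe sets are not comparable with each other, so the members are not ranked by level.

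**Figure D1:**
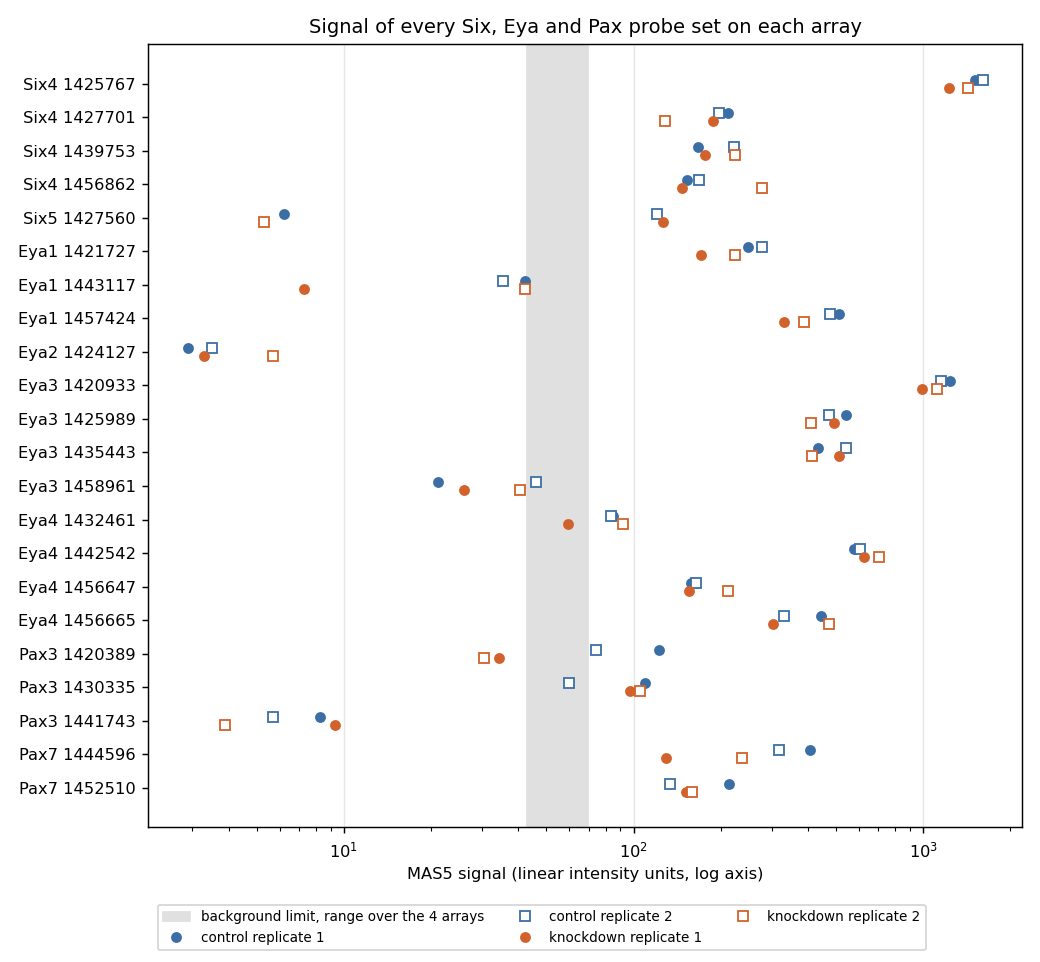
MAS5 signal of each of the 22 member probe sets (rows, gene and probe set number) on a log axis; blue marks are the 2 control arrays, orange marks the 2 knockdown arrays, and the grey band spans the background limits of the 4 arrays. Six4, Eya3 and Eya4 have probe sets to the right of the band with the colours close together, Pax7 1444596 and Pax3 1420389 have orange marks to the left of blue ones, and Eya2 and Pax3 1441743 lie below the band throughout.

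None of the 6 factors that could be tested passed the threshold, and Six5 and Eya2 were too dim to test. Differences are knockdown minus control on the scale log2(signal + 16), and a probe set counted as called when the Benjamini-Hochberg adjusted p of limma, taken over all 22893 tested probe sets, was under 0.05. By that rule 0 of the 17 member probe sets were called, against 0.961% of all tested probe sets called higher and 1.43% called lower. At an unadjusted p under 0.05, 3 member probe sets were lower and 0 higher, where the whole table had 8.56% lower and 6.91% higher. Those 3 were Pax7 1444596, Pax3 1420389 and Eya1 1457424. Pax3 1420389 passed the filter only through its control arrays and is also among the lower probe sets counted next, so these counts support nothing about the members. The control and knockdown signals did not overlap in 8 of the 17: they were lower in the knockdown in 7, where 24.0% of all tested probe sets were, and higher in 1, where 21.6% of all were. The median difference of the 17 was -0.15 log2 units, against -0.0052 over all tested probe sets. The 17 came from 6 genes, and the tested probe sets of Six4, Eya4 and Pax3 differed in both directions.

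The precision differed between members. The half-width of the 95% interval was smallest in Six4 1425767, at 0.30 log2 units. In 13 of the 17 probe sets the interval lay between -1 and 1 on the log2(signal + 16) scale, where 1 unit is more than a 2-fold difference in signal for dim probe sets. It reached below -1 in Pax7 1444596 and Eya4 1432461 and above 1 in Pax3 1430335, and Pax3 1420389 has only a bound, given below. An adjusted p above the threshold does not show that a level was the same in the groups.

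**Figure D2:**
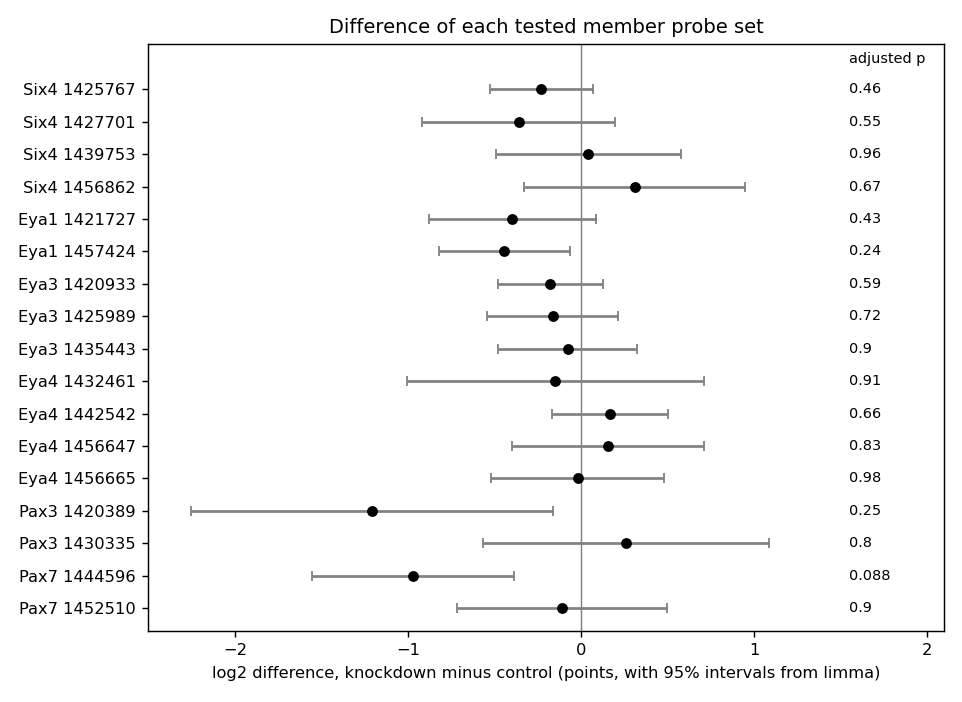
Log2 difference, knockdown minus control, of each of the 17 tested member probe sets (points) with its 95% interval from limma (bars) and its adjusted p at the right. The intervals of Eya1 1457424, Pax3 1420389 and Pax7 1444596 lie below 0, and the smallest adjusted p is 0.088, for Pax7 1444596. The point of Pax3 1420389 is fitted to knockdown signals below background and is not a measured size.

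Six4, which binds DNA, was above background on all 4 arrays in each of its 4 probe sets, and none of them passed. In probe set 1425767 the signals were 1502.7 and 1604.2 in the control against 1223.8 and 1425.1 in the knockdown. The groups did not overlap, yet the knockdown mean was 85.3% of the control, a difference of -0.23 (SE 0.14, adjusted p = 0.458). Its other 3 probe sets did not share a direction. Probe set 1427701 read 211.2 and 196.9 in the control against 187.8 and 127.9 in the knockdown (-0.36, SE 0.26, adjusted p = 0.549). Probe set 1456862 read 153.4 and 168.3 against 146.8 and 278.6 (0.31, SE 0.29, adjusted p = 0.673), with only knockdown replicate 2 above the control arrays. Probe set 1439753, whose identifier marks probes shared with other transcripts, differed by 0.04.

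Six5, which lies beside the myotonic dystrophy kinase gene Dmpk, had a single probe set, and it did not give a usable level. Its signals were 6.2 and 120.9 in the control against 126.8 and 5.3 in the knockdown, so that 1 array of each group was above background and the other was not. The spread inside each group was far larger than the difference between the group means, 63.6 and 66.1. Dmpk itself, next in the gene order, read 1493.8 and 1697.6 in the control and differed by 0.03 (SE 0.13, adjusted p = 0.947).

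Among the Eya coactivators, Eya1, Eya3 and Eya4 had tested probe sets, none of which passed, and Eya2 was not above background. In Eya3 probe set 1420933 the signals were 1240.7 and 1147.9 in the control against 990.6 and 1117.5 in the knockdown. They did not overlap, yet the nearest arrays of the groups lay closer together than the arrays within either group, and the difference was -0.18 (SE 0.14, adjusted p = 0.589). Probe sets 1425989 and 1435443 of Eya3 overlapped between the groups and differed by -0.16 and -0.08. A further Eya3 probe set, 1458961, was above background on no array.

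Eya4 had 4 tested probe sets with differences from -0.15 to 0.17. Probe set 1442542 read 575.4 and 605.6 in the control against 626.6 and 704.5 in the knockdown, the one member probe set in which the knockdown was higher without overlap (0.17, SE 0.15, adjusted p = 0.665). In probe set 1456665 the signals were 445.1 and 331.3 in the control against 303.9 and 471.1 in the knockdown, which crossed over. Probe set 1456647 differed by 0.16, and probe set 1432461 by -0.15 with 1 knockdown array in the background range.

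Eya1 had 2 tested probe sets, and their differences were of like size. Probe set 1457424 read 512.4 and 476.1 in the control against 331.3 and 388.8 in the knockdown, 72.8% of the control (-0.44, SE 0.17, adjusted p = 0.240). Probe set 1421727 read 248.0 and 277.7 in the control against 171.2 and 223.1 in the knockdown, 75.0% of the control (-0.40, SE 0.22, adjusted p = 0.433). Neither passed, and in each the lowest of the 4 arrays was knockdown replicate 1. The difference of the 2 log2 signals, first probe set 1421727 and then 1457424, was -1.001 and -0.745 in the control against -0.892 and -0.760 in the knockdown, which overlapped. The third probe set, 1443117, was above background on no array. Eya2 read 2.9 and 3.5 in the control against 3.3 and 5.7 in the knockdown, under the background limit on every array.

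Pax7 came nearest to the threshold, in 1 of its 2 probe sets. In 1444596 the signals were 406.7 and 318.4 in the control against 129.7 and 236.0 in the knockdown, means of 362.6 ± 62.4 and 182.9 ± 75.2 (SD, n = 2 each). The groups did not overlap, and the knockdown mean was 50.4% of the control (-0.97, SE 0.27, 95% interval -1.56 to -0.39, adjusted p = 0.0882). In 1452510 the signals were 213.4 and 133.1 in the control against 151.6 and 159.0 in the knockdown, which overlapped (-0.11, SE 0.28, adjusted p = 0.900). Within each array the log2 ratio of 1444596 to 1452510 was 0.88 and 1.17 in the control against -0.20 and 0.53 in the knockdown, without overlap. A two-sided exact permutation test of that ratio gave p = 0.333, the smallest that 2 against 2 arrays allow.

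The size of the Pax7 1444596 difference turned on single arrays. It was -0.58 without knockdown replicate 1 (adjusted p = 0.159), the array with the highest background limit, and -1.37 without knockdown replicate 2 (adjusted p = 2.57e-05). Without control replicate 1 it was -0.80 (adjusted p = 0.298) and without control replicate 2 -1.14 (adjusted p = 0.0396). Where an array is left out, the lone array of its group is taken to vary like the others. With the filter set to the upper 40% of signals the adjusted p was 0.0249. Under the other processing alternatives it was not called, with adjusted p from 0.0539 with the brightest probe set of each gene to 0.277 without the filter and 0.329 without the variance trend.

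Pax3 was near background. Probe set 1420389 read 122.4 and 74.4 in the control, above the background limit, and 34.2 and 30.5 in the knockdown, below it on both arrays. With the background limit in place of the 2 knockdown signals, the control stood at least 1.75-fold higher, and the fit did not call it (adjusted p = 0.246). It passed the filter only through the control arrays, and signals below background give no exact difference. Probe set 1430335 read 109.9 and 59.9 in the control against 97.2 and 105.3 in the knockdown, with overlapping groups (0.26, SE 0.38, adjusted p = 0.804). The third probe set, 1441743, read 3.9 to 9.3, below background throughout. In a culture, fewer cells that express a gene and less RNA per cell cannot be told apart.

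**Figure D3:**
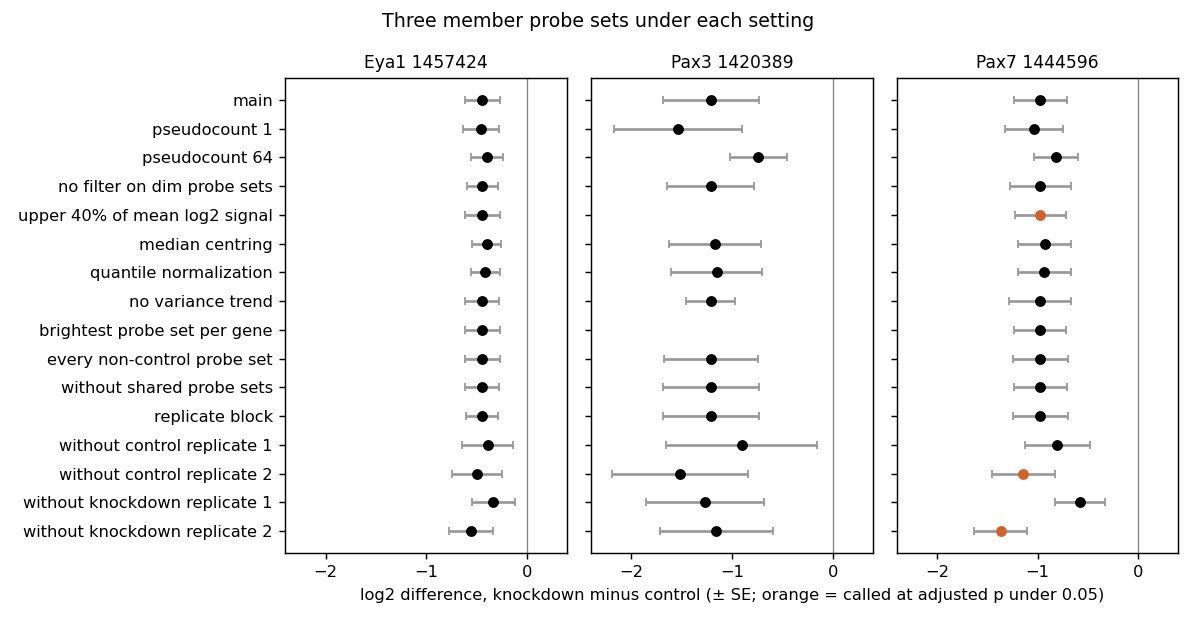
Log2 difference (points) with its SE (bars) for the 3 member probe sets with an unadjusted p under 0.05, under the main setting and each alternative (rows); orange points were called at an adjusted p under 0.05. All points lie below 0; Pax7 1444596 is called in 3 of 15 alternatives, and Eya1 1457424 and Pax3 1420389 in none. Pax3 1420389 has no value under the upper 40% filter or with the brightest probe set per gene, and its other points are fitted to knockdown signals below background.

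Genes that work with these factors were next read from 6 lists, each gene by its brightest tested probe set. Among all 12866 genes read this way 1.02% were called higher and 1.15% called lower. The differentiation markers moved in the same cultures: of Myog, Mymk, Ckm, Myh3, Acta1 and Tnnt1, 5 were called higher and none lower, and their summed signal ran from 1017 to 1322 in the control and from 4335 to 4618 in the knockdown. The part of this shift in the levels of the Six-family, Eya and Pax genes was not tested.

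**Figure D4:**
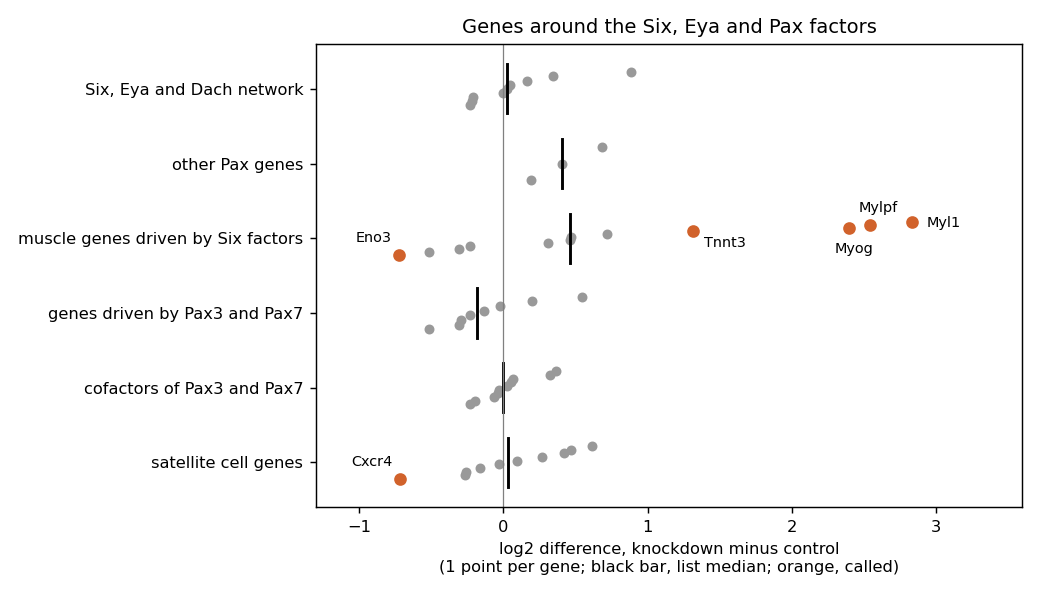
Log2 difference, knockdown minus control, of each tested gene (points) in the 6 lists of related genes (rows), with the list median as a black bar and called genes in orange with their names. Myog, Mylpf, Myl1 and Tnnt3 lie to the right, Eno3 and Cxcr4 to the left, and the other 4 lists hold no called gene.

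Muscle genes known to be driven by Six-family factors were called in both directions. Of 12 tested genes, out of 14 written, 4 were called higher and 1 lower, with a list median of 0.46 against 0.015 over all genes. Myog, whose promoter is shown above, read 341.9 and 296.2 in the control against 1656.7 and 1832.6 in the knockdown (2.40, SE 0.15, adjusted p = 5.11e-05). Mylpf, the fast regulatory myosin light chain gene, rose from 251.2 and 210.8 to 1320.2 and 1516.8. Myl1, a fast essential light chain gene, read 132.1 and 360.4 in the control against 1708.9 and 1630.1 in the knockdown, a difference of 2.84 (SE 0.32, adjusted p = 0.00117) whose size depended on the control array, since it was 2.16 without control replicate 1 and 3.51 without control replicate 2.

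The fast troponin T gene Tnnt3 rose from 73.4 and 73.0 to 215.4 and 197.0 (1.32, SE 0.29, adjusted p = 0.0370). That call was lost without control replicate 1 (adjusted p = 0.0591), without knockdown replicate 1 (0.0648) and with the replicate number as a block (0.0505). Eno3, which encodes the muscle enolase, fell from 9245.2 and 9245.6 to 5257.5 and 5961.5 (-0.72, SE 0.12, adjusted p = 0.00911). The remaining 7 tested genes were not called. Among them Atp2a1, the fast calcium pump gene, differed by 0.72 (SE 0.22, adjusted p = 0.127), and by 0.84 without knockdown replicate 1. Aldoa differed by 0.31 (SE 0.11, adjusted p = 0.208). It was called with median centring (0.0337) and with the replicate block (0.0298). The other probe sets of Aldoa differed by 0.01 to 0.29. Without the filter on dim signals the calls of Eno3, Tnnt3 and Myl1 were lost (adjusted p = 0.0938, 0.176 and 0.0582), and without the variance trend of the model so were all 5 (0.1202 to 0.253).

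Of 8 genes known to be driven by Pax3 and Pax7, 0 were called by their brightest probe set, with a list median of -0.18, and the smallest adjusted p was that of Met, the receptor of hepatocyte growth factor, with 1277.5 and 1313.1 in the control against 883.8 and 922.5 in the knockdown (-0.51, SE 0.13, adjusted p = 0.0747). Its second probe set passed, with a mean of 1205 ± 109 in the control against 712.5 ± 31.0 in the knockdown (SD, n = 2 each; -0.74, SE 0.14, adjusted p = 0.0233). The brightest one was called in 5 alternatives: the upper 40% filter (0.0386), median centring (0.0484), quantile normalization (0.0403), the replicate block (0.0379) and without knockdown replicate 2 (0.0346). Met, Myod1 and Myf5 are also on the Six-driven list. Myod1, the gene of the determination factor MyoD, differed by -0.31 (SE 0.14, adjusted p = 0.309), Lbx1, a homeobox gene of migrating muscle precursors, by 0.55 (SE 0.32, adjusted p = 0.460) and Myf5 by -0.23 (SE 0.17, adjusted p = 0.577).

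Among 10 tested genes of the satellite cell 0 were called higher and 1 lower by their brightest probe sets, with a list median of 0.03. Of the 10 differences 5 were positive. With median centring Cd34, Sdc3 and Megf10 were also called higher (adjusted p = 0.0460, 0.0230 and 0.0400). In the main setting Megf10 differed by 0.42 (SE 0.13, adjusted p = 0.139). It was also called with quantile normalization (0.0413) and the replicate block (0.0349). The Megf10 difference was 0.53 without knockdown replicate 1, a fit that leaves 1 array in that group. The gene called lower was Cxcr4, a chemokine receptor of migrating progenitors. It read 851.6 and 866.4 in the control against 518.9 and 515.5 in the knockdown (-0.71, SE 0.15, adjusted p = 0.0308). The call did not hold when either control array was left out (adjusted p = 0.115 and 0.104), without the filter on dim signals (0.0898) or without the variance trend (0.246). Sdc3, the syndecan 3 gene, lay at the threshold without passing it, with 723.5 and 826.2 in the control against 1133.4 and 1255.7 in the knockdown (0.62, SE 0.14, adjusted p = 0.05005). It was called in 8 alternatives, with adjusted p from 0.00607 to 0.0470. Its other 2 probe sets differed by -0.02 and 0.32. Cd34, a surface sialomucin gene, differed by 0.47 (SE 0.14, adjusted p = 0.123). Of Sdc4, the syndecan 4 gene, a second probe set was called lower, with 1708.1 and 1577.7 in the control against 1033.1 and 1005.4 in the knockdown (-0.68, SE 0.13, adjusted p = 0.0236), while its brightest differed by -0.03.

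In the Six-Eya-Dach network 0 of 9 tested genes were called, with a list median of 0.03. Tle2, a Groucho-type corepressor gene, read 96.6 and 76.4 in the control against 163.9 and 181.3 in the knockdown (0.89, SE 0.29, adjusted p = 0.161). Skil, a gene related to the corepressor Ski, differed by 0.35 (SE 0.14, adjusted p = 0.252; -0.16 in its other probe set) and Tle5 by -0.22 (SE 0.12, adjusted p = 0.408). Six2 read 224.3 and 163.2 in the control against 147.3 and 180.1 in the knockdown (-0.21, SE 0.26, adjusted p = 0.755), and Six3 differed by 0.16. Six6 and the Dach genes did not pass the filter on dim signals. Of the other Pax genes 3 were tested and 0 called. Pax8 differed by 0.41 (SE 0.31), Pax5 by 0.69 (SE 0.55) and Pax6 by 0.19 (SE 0.39), with adjusted p from 0.587 to 0.875. Pax5 read 185.1 and 29.7 in the control, the second below background, against 159.9 and 119.3 in the knockdown. Its dimmer, untested probe set read 57.2 and 61.6 in the control against 22 and 4.8 in the knockdown, the last 2 below background. An untested probe set of Pax6 read 68.8 and 73.4 in the control against 51 and 20.3 in the knockdown, the last 2 below background.

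Of 10 tested cofactors of Pax3 and Pax7, 0 were called by their brightest probe set, with a list median of -0.0039. The histone methyltransferase gene Kmt2d differed by 0.36 (SE 0.16, adjusted p = 0.316), Rbbp5, a subunit of the same class of complexes, by 0.32 (SE 0.16, adjusted p = 0.366) and Paxbp1, which encodes a protein that binds Pax3 and Pax7, by -0.20 (SE 0.16, adjusted p = 0.613). A second probe set of Ash2l, the gene of a further subunit, was called lower, with 218.3 and 148.2 in the control against 30 and 62.4 in the knockdown (-1.71, SE 0.39, adjusted p = 0.0461), where knockdown replicate 1 was in the background range. The brightest probe set of Ash2l differed by -0.06.

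**Figure D5:**
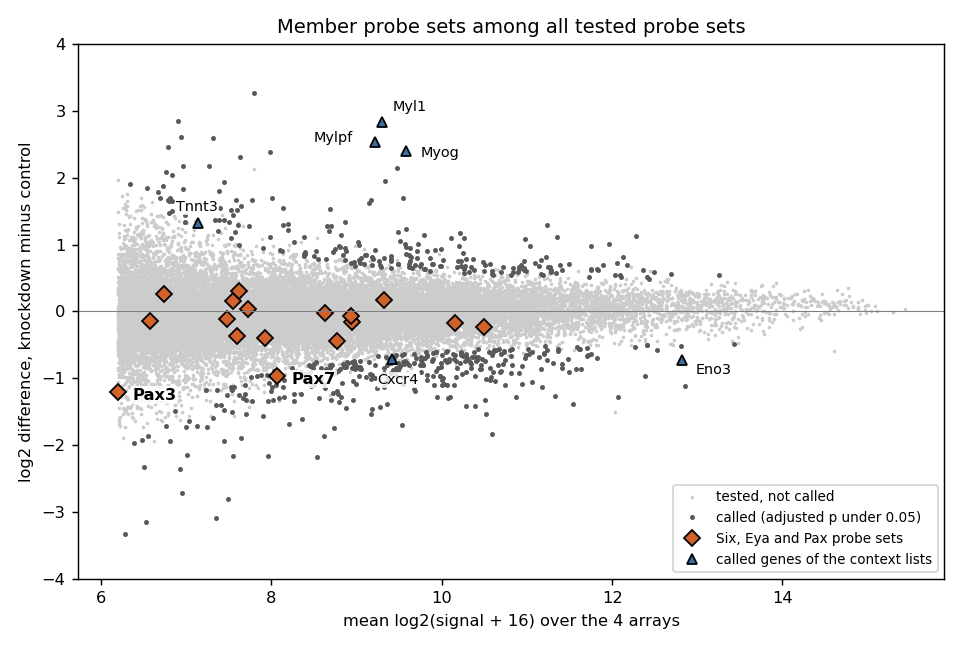
Log2 difference, knockdown minus control, against the mean log2(signal + 16) for all 22893 tested probe sets (grey, called ones dark), with the 17 member probe sets as orange diamonds and the called genes of the related lists as blue triangles. Most diamonds lie inside the grey cloud; Pax7 1444596 lies at the inner edge of the dark points, and Pax3 1420389 is at the dim left end, where the cloud is widest.

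The genes next to the members on their chromosomes were read as well, the 2 nearest named protein-coding genes on each side in the RefSeq order of GRCm38.p6. Of 32 such neighbours 27 had a probe set, 25 were tested, 1 was called higher and 0 lower. The one called was Msc, next to Eya1, the gene of musculin, a repressor of the basic helix-loop-helix family. Its signals were 174.4 and 125.8 in the control against 437.2 and 488.9 in the knockdown (1.54, SE 0.22, adjusted p = 0.00428), while the tested Eya1 probe sets differed by -0.44 and -0.40. Slc18b1, near Eya4, differed by 0.71 (SE 0.17, adjusted p = 0.0557), and Mnat1, next to Six4, by 0.10.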

How the data were processed

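RNA from 4 C2C12 cultures, 2 per group, was measured on 1 array each. The authors made linear intensity values per probe set with MAS5 and GCOS, named without versions in the submitters' processing notes; how arrays were scaled is not stated there. MAS5 subtracts mismatch signal, which makes dim values noisy. All sample columns were used as deposited. In the array annotation 34945 of 45101 probe sets had 1 gene, 932 several and 9160 none, and 64 were controls; 34741 of the 34945 matched a RefSeq identifier.

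Signals were taken as log2(signal + 16), which understates changes of dim genes, and the upper 60% by mean were kept. Each probe set was tested with limma 3.58.1 (lmFit, eBayes with a variance trend) in R 4.3.3, with Benjamini-Hochberg adjustment over 22893 probe sets and 2 residual plus 9.60 prior degrees of freedom. The background limit was, on each array, percentile 95 of the 27 bacterial controls. The number of arrays limits the precision. The steps were tested on simulated data.

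Members and lists were chosen with earlier results of these data known. Named genes are all members, each list's called genes and 3 smallest p, and neighbours; no member was called, so none is named for a like pattern. Epcam, Six2, Six3, Myf5, Atp2a1, Aldoa, Megf10 and the markers of other cell types were added after their values were seen. So were further probe sets of Met, Sdc4, Ash2l, Pax5, Pax6 and Aldoa. Alternatives changed the pseudocount, filter, scaling, variance trend, probe sets, replicate block and arrays left out.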

Additional observations from a re-analysis of the deposited data

How the results depend on the processing

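Of the 17 tested member probe sets, 9 kept the sign of their difference under every alternative that could be fitted, and Pax7 1444596 was the one called in any of them. The count of called members was 0 in the main setting and 1 with the upper 40% filter. Leaving out each array gave 0 to 1 called members. Signs changed in 2 fits under the scaling alternatives. The 548 called probe sets of the whole table were 63 without the filter (22 higher, 41 lower), 950 with the upper 40% filter (359 and 591) and 0 without the variance trend (0 and 0; 2913 at an unadjusted p under 0.05 in limma). Median centring gave 401 higher calls against 220, a share of 54.6% against 40.1%. The brightest probe set per gene gave 207 lower calls among 12866 tested, against 328 among 22893 in the main setting. Leaving out each array gave 297 to 1429 calls, 126 to 730 of them higher and 171 to 1040 lower; the extremes came without control replicate 1 (297), knockdown replicate 1 (1429) and knockdown replicate 2 (1359). The 6 called genes of the related lists were 2 without the filter, where Eno3, Tnnt3, Myl1 and Cxcr4 were lost, 11 with median centring and 0 without the variance trend. With the replicate number as a block, 857 probe sets were called, 379 of them higher, and 0 members. Deviations from the group mean correlated at 0.0095 between control replicate 1 and knockdown replicate 1. Whether same-numbered arrays shared more than a number was not tested. The cause of the changes between settings was not tested either. Signals below background give no order, which limits Eya2, Six5 and Pax3 most.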
